A study of Mus musculus with 30 samples.

Results

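Type I interferon response genes are the genes that a cell switches on after interferon alpha or beta binds its receptor. A list of 39 such genes was followed here in neutrophils, macrophages and microglia from the ischemic hemisphere of TREM1 knockout (KO) and wild-type (WT) mice. Members were found by gene symbol in the array's annotation, and 38 of the 39 were measured, each by 1 transcript cluster (the set of probes that the array summarises into 1 value), among 19479 annotated genes. Ifi44 was not analysed here. The labels give male C57BL/6 mice of 8 to 10 weeks in both genotypes, occlusion of the middle cerebral artery (MCAo, a model of ischemic stroke) for 45 min in every mouse, and collection 48 h after reperfusion. No group without ischemia was analysed here. The sort gates were CD45Hi CD11b+ Ly6G+ for neutrophils, CD45Hi CD11b+ Ly6G- for macrophages and CD45Lo CD11b+ for microglia, although the microglia labels also carry Ly6G+. There were 5 KO and 4 WT neutrophil arrays, 6 KO and 3 WT macrophage arrays, and 6 KO and 6 WT microglia arrays. TREM1 is a receptor of myeloid cells that amplifies inflammatory signals, and the KO mice are labelled TREM1-/-. The labels do not say how the allele was made or whether 1 array is 1 mouse, so p-values measure the spread between arrays.

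Interferon alpha and beta signal through a shared receptor to the kinases JAK1 and TYK2, which activate STAT2. STAT2 and IRF9 belong to a complex that binds the interferon-stimulated response element in the promoters of responding genes, and IRF7, itself induced, raises further interferon production. The induced proteins sense foreign nucleic acid, block translation and virus release, or tag proteins with ISG15, and in the brain microglia and infiltrating myeloid cells are among the cells known to mount this response after injury.

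Values are log2 of the intensities the authors deposited, and a level of one gene is not comparable with that of another because each probe set has its own response. A change was called where the adjusted p of limma, a linear model over all 30 arrays and 22103 clusters, was under 0.05. How precisely a value is known is limited by the arrays per group. The median over all clusters of their mean log2 level was 6.69, and 28 of the 38 genes were at or above it in all 6 groups. Rsad2, Oasl1, Gbp2 and Ifi27l2a were below it in all 6 groups, where no detection call per array was given. The sorted cells carried their labels' markers: 11 measured neutrophil markers averaged 14.91 to 15.82 in KO and 15.89 to 16.57 in WT neutrophil arrays, 12 monocyte and macrophage markers 14.31 to 14.67 in KO and 14.28 to 14.70 in WT macrophage arrays, and 11 measured microglial markers 13.81 to 14.96 in KO and 13.67 to 14.90 in WT microglia arrays. In macrophages the neutrophil markers averaged 9.78 to 10.76 in KO and 10.17 to 11.17 in WT arrays. Of 6 dendritic cell markers 4 were called higher and 1 lower in WT macrophages than in WT microglia, where 9.62% and 27.9% of all clusters were. The part of other cells in the macrophage levels was not tested. In microglia the neutrophil markers averaged 7.58 to 9.32 in KO and 7.52 to 8.31 in WT arrays, although the labels give that gate as Ly6G positive. Ly6g itself was not analysed here. Trem1 was at 15.98 ± 0.51 (SD, n = 5) in KO and 17.20 ± 0.29 (n = 4) in WT neutrophils, a difference of -1.22 (limma adjusted p = 0.0361). It was at 13.47 ± 0.53 (n = 6) in KO and 13.96 ± 0.32 (n = 3) in WT macrophages (difference -0.49, adjusted p = 0.998), and at 8.35 ± 0.68 in KO and 9.60 ± 1.02 in WT microglia (n = 6 each, difference -1.25, adjusted p = 1), with overlapping ranges in both. The array gives the gene 1 value and the labels do not name the deleted part, so this level does not check the genotype. In RNA from sorted cells, fewer cells of a type and less RNA per cell cannot be told apart.

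The promoters of these genes are the place where the pathway acts, so the 250 bases before the RefSeq start were searched for the core of the interferon-stimulated response element (GAAA, any 2 bases, and GAAA again) and of the gamma activated site, TTCNNNGAA, on both strands. Promoters were matched for 28 of the 38 genes, with 35 windows. The response element core was in 25.7% of these windows, against 2.98% of all 32851 promoter windows, and belonged to Bst2, Gbp2, Gbp3, Ifit1, Ifit3, Isg15, Oas3, Rsad2 and Stat2. The gamma activated site core was in 17.1% of them, against 7.02% of all windows, and belonged to Bst2, Eif2ak2, Ifit2, Irf1, Isg20 and Samhd1. The 6 windows below were picked, among core genes and genes called between genotypes, because they hold the response element core. Irf7, Parp12, Ifi27l2a and Isg20 were not among the genes with that core, and not every gene had a window. The windows are from RefSeq on GRCm38.p6, read in the direction of transcription on the gene's strand with the core in capitals. A match on the opposite strand reads TTTC, any 2 bases, and TTTC again. Matches that overlap run together, as in Isg15, where 3 copies follow one another, and in Bst2, which has 2. Bst2 also holds 1 match to the gamma activated site core, which overlaps the capitals. That core reads the same on both strands and was counted once per site. A match is a run of letters, not a shown binding site.
Ifit1, chr19:34640639-34640888 (plus strand): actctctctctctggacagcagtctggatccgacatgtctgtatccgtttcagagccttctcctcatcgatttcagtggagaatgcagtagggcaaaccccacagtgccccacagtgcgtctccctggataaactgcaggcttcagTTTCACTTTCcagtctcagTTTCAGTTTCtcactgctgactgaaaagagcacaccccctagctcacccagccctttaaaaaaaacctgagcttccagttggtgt
Ifit3, chr19:34583279-34583528 (plus strand): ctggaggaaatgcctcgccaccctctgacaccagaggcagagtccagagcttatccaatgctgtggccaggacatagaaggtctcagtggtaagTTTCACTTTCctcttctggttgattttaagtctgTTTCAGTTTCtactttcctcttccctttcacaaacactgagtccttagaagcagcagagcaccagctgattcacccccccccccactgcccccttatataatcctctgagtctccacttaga
Isg15, chr4:156200819-156201068 (minus strand): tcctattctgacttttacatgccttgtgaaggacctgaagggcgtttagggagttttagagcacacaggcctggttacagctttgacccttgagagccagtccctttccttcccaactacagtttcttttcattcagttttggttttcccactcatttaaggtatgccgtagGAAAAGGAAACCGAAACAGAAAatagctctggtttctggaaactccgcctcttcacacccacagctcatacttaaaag
Rsad2, chr12:26456453-26456702 (minus strand): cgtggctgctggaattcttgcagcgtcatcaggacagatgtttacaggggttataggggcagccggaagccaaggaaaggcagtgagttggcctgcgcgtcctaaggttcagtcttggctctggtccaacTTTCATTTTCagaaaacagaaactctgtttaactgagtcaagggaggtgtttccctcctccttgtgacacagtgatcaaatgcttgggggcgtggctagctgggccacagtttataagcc
Stat2, chr10:128270248-128270497 (plus strand): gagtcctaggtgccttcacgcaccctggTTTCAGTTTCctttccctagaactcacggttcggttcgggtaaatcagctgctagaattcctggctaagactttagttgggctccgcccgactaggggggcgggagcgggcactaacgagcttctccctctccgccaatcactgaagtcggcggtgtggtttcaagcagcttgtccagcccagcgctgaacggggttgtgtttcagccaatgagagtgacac
Bst2, chr8:71537473-71537722 (minus strand): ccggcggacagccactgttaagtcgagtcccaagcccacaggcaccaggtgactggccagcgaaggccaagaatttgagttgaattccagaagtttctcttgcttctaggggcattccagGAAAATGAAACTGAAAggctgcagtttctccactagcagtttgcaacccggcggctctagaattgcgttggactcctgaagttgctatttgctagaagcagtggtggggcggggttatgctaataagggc

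Across the 3 cell types, macrophages held the highest mean level of the 38 genes and microglia the lowest, in both genotypes. The mean per array was 9.53, 9.73, 9.68, 9.96, 10.03 and 9.90 in KO macrophages and 9.85, 9.24 and 9.89 in WT macrophages. It was 8.95, 9.43, 9.19, 8.81 and 9.12 in KO neutrophils and 8.72, 9.45, 9.0 and 8.47 in WT neutrophils. It was 8.43 to 8.78, with a median of 8.66, in KO microglia and 8.20 to 8.70, with a median of 8.44, in WT microglia. Every KO macrophage array lay above every KO neutrophil array, whereas WT macrophage 2 lay below WT neutrophil 2. All KO neutrophil arrays lay above all KO microglia arrays, while WT neutrophil 4 lay among the WT microglia. The differences in these means were 0.46 between neutrophils and microglia and 1.17 between macrophages and microglia in KO mice, and 0.48 and 1.22 in WT mice. The median SD of the genes within a group was 0.67 in WT neutrophils, against 0.38 for all clusters there, and 0.36 to 0.49 in the other groups. One WT macrophage array, number 2, was the lowest of its 3 in 27 of the 38 genes.

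**Figure D1:**
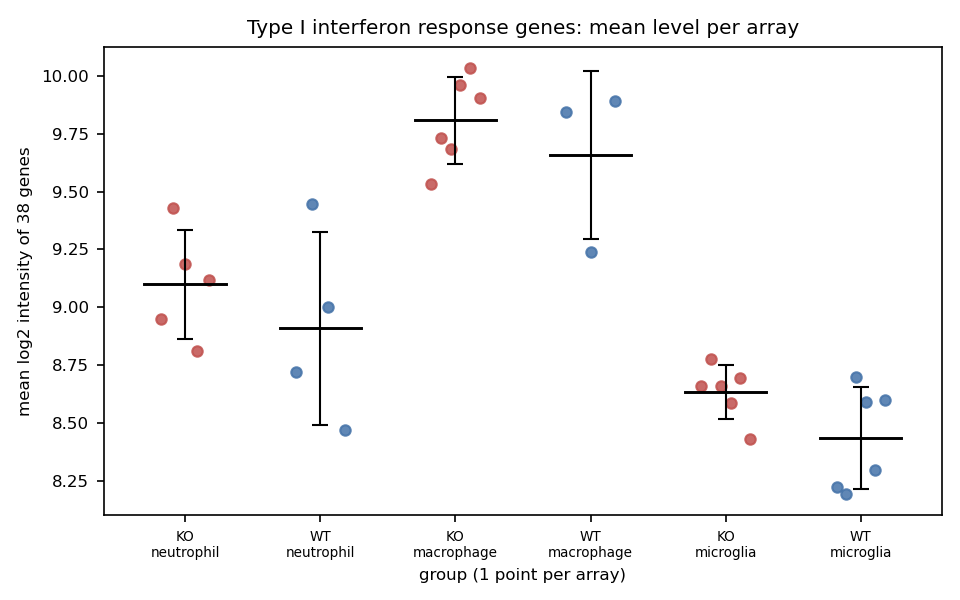
Mean log2 intensity of the 38 genes on each array (vertical axis) in the 6 groups (KO red, WT blue), with 1 point per array, the group mean as a line and the SD as a bar. Macrophage arrays lay from 9.24 to 10.03 and microglia arrays from 8.20 to 8.78.

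The core of the response did not follow 1 pattern over cell types. Irf7, the factor that amplifies interferon production, had 8.79, 10.31, 9.55, 7.35 and 8.52 in KO neutrophils, against 8.31, 9.30, 8.48 and 8.12 in WT neutrophils. In macrophages Irf7 was 9.95 at the lowest, 10.33 at the median and 11.72 at the highest in KO, against 9.35, 9.67 and 11.09 in WT. In microglia it was 6.30, 7.63 and 8.00 (lowest, median, highest) in KO, against 6.04, 6.83 and 7.85 in WT. By group mean Irf7 was thus brightest in macrophages and dimmest in microglia, whose arrays did not overlap with those of macrophages in either genotype. KO neutrophil arrays, from 7.35 to 10.31, overlapped with both other cell types, whereas WT neutrophil arrays, from 8.12 to 9.30, overlapped with neither. Stat2, the signal transducer of the response element complex, had 10.71, 10.62, 10.80, 10.53 and 11.28 in KO neutrophils, against 10.64, 11.99, 10.87 and 10.22 in WT neutrophils. In macrophages Stat2 was 11.21 at the lowest, 11.54 at the median and 11.62 at the highest in KO, against 12.33, 10.61 and 11.23 in WT. In microglia it was 9.72, 10.52 and 10.65 in KO, against 9.54, 9.93 and 11.27 in WT (lowest, median, highest). The macrophage arrays of KO mice were the narrowest set for Stat2, with an SD of 0.15, and the WT groups overlapped with each other.

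Isg15, the ubiquitin-like modifier that is among the classical readouts of interferon, showed no called difference between cell types. It had 7.92, 8.49, 8.18, 6.93 and 6.97 in KO neutrophils, against 7.35, 8.95, 8.55 and 7.26 in WT neutrophils. In macrophages Isg15 was 7.40 at the lowest, 8.26 at the median and 8.60 at the highest in KO, against 7.72, 7.30 and 7.93 in WT. In microglia it was 6.70, 7.85 and 8.38 in KO, against 6.81, 7.34 and 8.21 in WT (lowest, median, highest). All 6 groups overlapped for Isg15, whose promoter window above holds 3 copies of the response element core.

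Ifit1, a translation inhibitor that binds foreign RNA ends, had 7.35, 8.13, 8.06, 7.42 and 8.02 in KO neutrophils, against 6.89, 8.87, 6.99 and 7.12 in WT neutrophils. In macrophages Ifit1 was 7.64 at the lowest, 8.01 at the median and 8.14 at the highest in KO, against 8.03, 6.86 and 7.58 in WT. In microglia it was 7.66, 7.73 and 7.82 in KO, against 6.84, 7.42 and 7.77 in WT (lowest, median, highest). WT neutrophil 2 was the brightest of all arrays for Ifit1, and the ranges of the cell types overlapped. Ifit3, a partner of Ifit1, had 8.86, 8.85, 9.21, 8.25 and 8.97 in KO neutrophils, against 9.01, 9.16, 9.02 and 9.32 in WT neutrophils. In macrophages Ifit3 was 8.27 at the lowest, 8.73 at the median and 9.13 at the highest in KO, against 8.14, 8.61 and 9.10 in WT. In microglia it was 7.97, 9.09 and 9.24 in KO, against 8.44, 9.15 and 9.44 in WT (lowest, median, highest). The cell types overlapped for Ifit3 too, and its value may include signal from the near-identical Ifit3b. Rsad2, which encodes the antiviral enzyme viperin, had 5.81, 5.99, 6.37, 5.84 and 5.92 in KO neutrophils, against 6.36, 6.20, 5.30 and 4.82 in WT neutrophils. In macrophages Rsad2 was 5.97 at the lowest, 6.44 at the median and 7.60 at the highest in KO, against 6.94, 6.36 and 6.75 in WT. In microglia it was 4.92, 5.50 and 6.12 in KO, against 5.24, 5.70 and 6.12 in WT (lowest, median, highest). These Rsad2 means were all below the median cluster level, and the macrophage means were the highest.

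**Figure D2:**
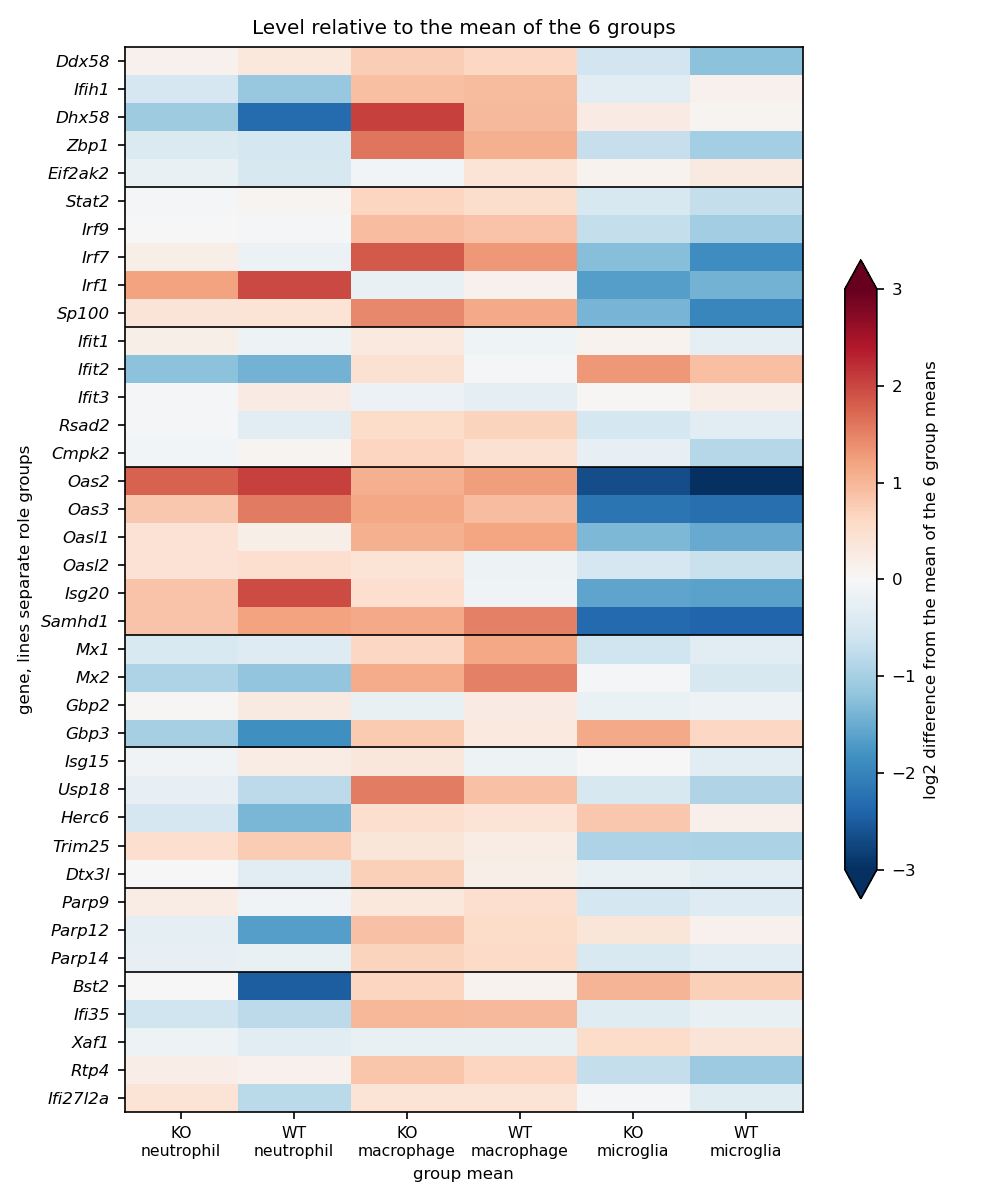
Mean log2 level of each of the 38 genes (rows, grouped by role) in each of the 6 groups (columns), shown as the difference from the mean of the 6 group means (colour, clipped at 3 in either direction). Oas2, Oas3 and Samhd1 were lowest in the microglia columns, while Bst2 and Dhx58 were lowest in WT neutrophils.

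WT macrophages exceeded WT microglia in 22 of the 38 genes and were below them in none, where 9.62% of all clusters were called higher and 27.9% lower. Oas2, which makes the oligoadenylates that switch on RNase L, had 9.95, 8.79 and 9.54 in WT macrophages, against 4.16 at the lowest, 4.71 at the median and 5.04 at the highest in WT microglia, a difference of 4.77 (SE 0.40, adjusted p = 1.02e-10). Samhd1, which degrades the building blocks of DNA, had 13.57, 12.86 and 12.75 in WT macrophages, against 8.80, 9.27 and 9.49 (lowest, median, highest) in WT microglia, a difference of 3.88 (SE 0.32, adjusted p = 4.93e-11). For both genes all macrophage arrays lay above all microglia arrays. Oas3, of the same enzyme family as Oas2, had 7.48, 7.39 and 7.60 in WT macrophages, against 3.98, 4.24 and 4.87 (lowest, median, highest) in WT microglia, a difference of 3.19 (SE 0.31, adjusted p = 1.43e-09). Irf7, with the values above, was higher by 3.16 (SE 0.50, adjusted p = 1.04e-05). Oas2 and Oas3 in microglia lay below the median cluster level, so that these differences rest on a dim level there.

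By role, all 5 transcription factors (Stat2, Irf9, Irf7, Irf1 and Sp100, a nuclear body protein) were higher in WT macrophages than in WT microglia, as were 5 of the 6 oligoadenylate synthetase and nuclease genes. Among the 5 sensors 2 were higher, with 2.08 for Zbp1, a sensor of Z-form nucleic acid. Among the 5 genes of the IFIT and viperin group 2 were higher, with 1.33 for Cmpk2, a mitochondrial nucleotide kinase. Of the 4 dynamin-like GTPases 2 were higher, with 1.99 for Mx2, a gene that, like Mx1, is known to be defective in this strain. The ISG15 system had 2 of 5 higher, with 1.77 for Usp18, the enzyme that removes ISG15. The PARP genes had 2 of 3 higher, with 0.90 for Parp14, and the remaining group 2 of 5, with 1.76 for the chaperone gene Rtp4. The median difference of the 38 genes was 1.07, against -0.25 over all clusters. With each array centred on its median these were 1.48 and 0.15, and 27 genes were higher and 0 lower. Of all clusters called, 25.7% were higher in macrophages, which became 49.7% with quantile normalization and 66.5% with centring. Without WT macrophage 1, whose T and NK cell markers averaged 6.66 against 5.14 to 5.21 in the other 2 arrays, 17 genes were higher. Without WT microglia 2, 2 genes were lower, and 1 was without WT macrophage 3 or WT microglia 5.

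WT neutrophils exceeded WT microglia in 14 of the 38 genes and were below them in 9, where 22% of all clusters were called higher and 32.3% lower. Oas2 had 10.71, 10.43, 10.93 and 8.85 in WT neutrophils, against the WT microglia values above, a difference of 5.57 (SE 0.37, adjusted p = 2.73e-13). Oas3 had 7.29, 8.23, 7.75 and 9.17 in WT neutrophils, and its difference from WT microglia was 3.81 (SE 0.28, adjusted p = 2.59e-12). All neutrophil arrays lay above all microglia arrays for both synthetases. Samhd1 had 12.96, 13.37, 13.28 and 11.47 in WT neutrophils, which was 3.59 above WT microglia (SE 0.29, adjusted p = 1.84e-11). Isg20, a nuclease of single-stranded RNA, had 11.15, 12.15, 11.12 and 11.06 in WT neutrophils, against 7.35, 7.78 and 8.14 (lowest, median, highest) in WT microglia, a difference of 3.57 (SE 0.31, adjusted p = 1.04e-10). All 6 genes of the synthetase and nuclease group and all 5 transcription factors were higher in neutrophils, with 3.40 for Irf1.

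The 9 genes that were lower in WT neutrophils than in WT microglia included Bst2, which encodes tetherin, a membrane protein that holds budding virus on the cell. Bst2 had 13.21, 11.96, 11.39 and 11.54 in WT neutrophils, against 14.99, 15.11 and 15.62 (lowest, median, highest) in WT microglia, a difference of -3.18 (SE 0.31, adjusted p = 5.8e-10). Gbp3, a guanylate-binding GTPase, had 7.16, 8.93, 7.52 and 4.98 in WT neutrophils, against 8.84, 9.49 and 10.68 in WT microglia, a difference of -2.45 (SE 0.55, adjusted p = 0.000387). The groups overlapped for Gbp3, through WT neutrophil 2, but not for Bst2. Dhx58, which encodes the RNA sensor LGP2, had 7.63, 8.72, 9.64 and 6.21 in WT neutrophils, against 9.43, 10.28 and 12.17 in WT microglia, a difference of -2.39 (SE 0.47, adjusted p = 8.17e-05). Ifit2, of the IFIT family, had 5.39, 6.28, 5.09 and 5.35 in WT neutrophils, against 6.99, 8.05 and 8.45 in WT microglia, a difference of -2.32 (SE 0.35, adjusted p = 2.21e-06). Ranges overlapped for Dhx58 and not for Ifit2, which was the only gene of its role group that changed. Among the other groups 1 of 5 sensors was higher and 2 lower, 2 of 4 GTPases were lower, the ISG15 system had 1 higher (Trim25, 1.72) and 1 lower, 1 of 3 PARP genes was lower (Parp12, -1.77), and in the remaining group 1 was higher and 2 lower. The median of the 38 differences was 0.19, against -0.06 over all clusters, and 0.01 without WT neutrophil 2. Quantile normalization gave 19 genes higher and 7 lower, with a median of 0.77. Of all clusters called, 40.6% were higher in neutrophils, and 51.6% with either scaling.

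**Figure D3:**
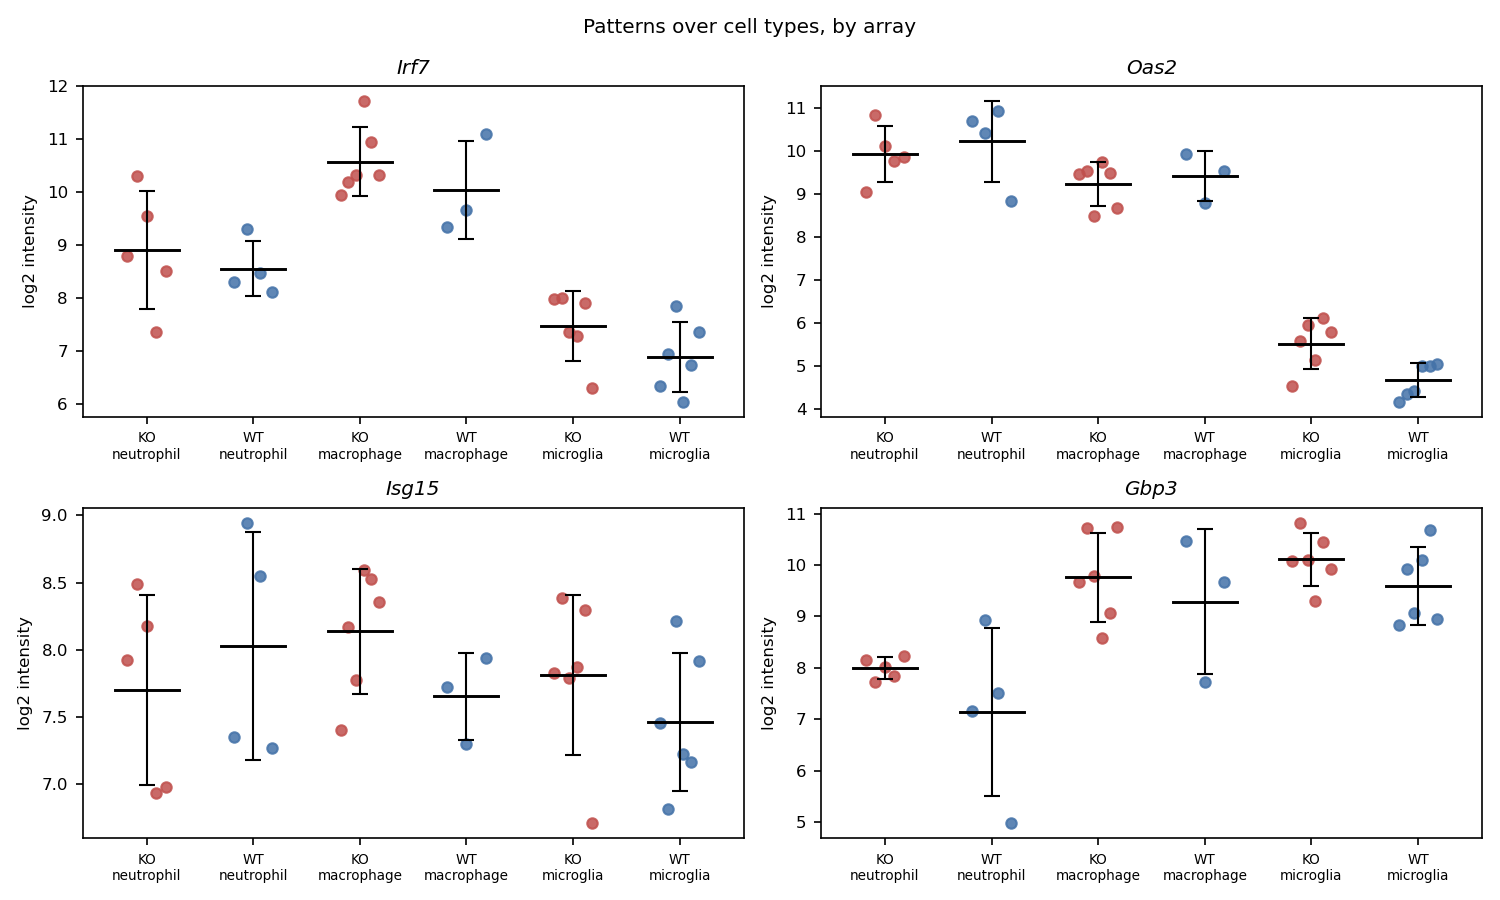
Log2 intensity of Irf7, Oas2, Isg15 and Gbp3 on each array (vertical axes, which do not start at 0) in the 6 groups (KO red, WT blue), with the mean as a line and the SD as a bar. The means of Irf7 were highest in macrophages, Oas2 was low in microglia (4.16 to 6.13), Isg15 overlapped in all groups, and the means of Gbp3 were lowest in neutrophils.

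WT neutrophils were below WT macrophages in 18 of the 38 genes and above them in 3, where 22% of all clusters were called lower and 29.6% higher. Dhx58 had 10.72, 11.69 and 11.58 in WT macrophages, so that the difference of neutrophils from macrophages was -3.28 (SE 0.55, adjusted p = 2.2e-05). Mx2 had 6.31, 6.14, 5.61 and 6.32 in WT neutrophils, against 9.36, 7.49 and 9.48 in WT macrophages, a difference of -2.69 (SE 0.35, adjusted p = 5.88e-07). The groups did not overlap for either gene. Bst2 had 14.05, 14.58 and 15.16 in WT macrophages, and its difference was -2.57 (SE 0.36, adjusted p = 1.65e-06). Parp12, an enzyme that attaches ADP-ribose and is recruited to stress granules, had 11.88, 11.93, 11.38 and 12.33 in WT neutrophils, against 13.84, 14.20 and 14.18 in WT macrophages, a difference of -2.19 (SE 0.21, adjusted p = 2.86e-09). These 4 genes had the most negative differences of the 18. Isg20 had 8.96, 8.92 and 10.00 in WT macrophages and was higher in neutrophils by 2.07 (SE 0.37, adjusted p = 4.67e-05). Irf1, a factor that interferon gamma also induces, had 11.27, 12.23, 11.78 and 11.50 in WT neutrophils, against 9.82, 9.78 and 9.90 in WT macrophages, a difference of 1.86 (SE 0.34, adjusted p = 6.39e-05). All neutrophil arrays lay above all macrophage arrays for Isg20 and Irf1.

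Trim25, a ubiquitin ligase that modifies RIG-I, was higher by 0.55 (SE 0.21, adjusted p = 0.0259), with 12.01, 12.45, 12.20 and 11.44 in WT neutrophils against 11.64, 11.31 and 11.46 in WT macrophages. These ranges overlapped, and its call ended with each array centred on its median (0.29, adjusted p = 0.275), with only the arrays compared (adjusted p = 0.141), or without WT neutrophil 2 (0.41), WT neutrophil 3 (0.49), WT macrophage 2 (0.47) or WT macrophage 3 (0.55), at adjusted p up to 0.103. The median difference of the 38 genes was -0.77, against 0.17 over all clusters. It was -0.43 with quantile normalization, with 5 genes higher and 14 lower. With centring it was -1.03, with 2 higher and 22 lower, and the share of all called clusters that were higher was 38.7% in place of 57.4%.

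The cell type comparisons were also made in the KO arrays, which are separate from the WT arrays. Both sets of calls came from the same fit, with 1 variance estimate per gene, so they are not independent. How many calls over all clusters were shared between the genotypes was not counted, so the shares of calls in both have no background. KO macrophages exceeded KO microglia in 26 genes and were below them in 2 (Xaf1 and Ifit2), where 11.8% of all clusters were called higher and 31.4% lower. Of the 22 genes higher in WT, 21 were also higher in KO, which is 95.5% of the WT calls and 80.8% of the KO calls. KO neutrophils exceeded KO microglia in 14 genes and were below them in 8, where 13% of all clusters were called higher and 32% lower, and 13 and 8 of these were shared with WT. KO neutrophils exceeded KO macrophages in 1 gene, Irf1, and were below them in 17, where 15.9% of all clusters were called higher and 15.8% lower. Here 1 higher and 14 lower genes were shared with WT, which is 33.3% and 77.8% of the WT calls. No gene was called in opposite directions in the 2 genotypes in any of these pairs. Quantile normalization gave 17 higher and 5 lower for KO neutrophils against KO microglia and 3 higher and 13 lower for KO neutrophils against KO macrophages. Centring gave 16 higher and 4 lower for KO neutrophils against KO microglia. Of all clusters called, the share that was higher was 28.8% for KO neutrophils against microglia (49.1% with quantile normalization, 55% with centring), 27.4% for KO macrophages against microglia (50.8% and 65.5%), and 50.1% for KO neutrophils against macrophages (38.6% with centring).

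Combining the 3 pairs within a genotype gave each gene 1 pattern. A gene with macrophages above both other cell types was counted there, also where its neutrophils were below microglia. The genes listed under a pattern had the same one in KO and WT, while others differed. The share of all clusters with each pattern was not counted. Macrophages were above both other cell types for 10 genes in WT and 14 in KO. The 8 in both were Zbp1, Irf9, Irf7, Mx1, Mx2, Usp18, Parp14 and Ifi35. Neutrophils and macrophages were both above microglia, with no call between them, for 7 genes in WT and 9 in KO. Those in both were Oas2, Oas3, Samhd1 and Rtp4. Neutrophils were above both others for 3 genes in WT and 1 in KO, with Irf1 in both. They were below both for 7 and 3 of the genes not counted with macrophages above both. Those in both genotypes were Ifit2, Gbp3 and Herc6, a ligase of ISG15 in mouse. Mx2 in both genotypes, and Dhx58 and Parp12 in KO, were also lower in neutrophils than in both others, but were counted with macrophages above both. No pair was called for 6 genes in WT and 7 in KO. The 5 in both were Eif2ak2, the translation-blocking kinase PKR, Ifit1, Ifit3, Gbp2 and Isg15. Of these 5 genes 4 held the response element core in their promoter window, against 0 of the 3 genes high in macrophages in both genotypes that had a window. This was seen after the patterns were known and is given as a count of letters, with no test.

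The comparison of KO with WT cells asks whether loss of TREM1 changes the response within a cell type. In KO neutrophils 3 genes were higher and 1 was lower than in WT neutrophils, 4 of 38, where 19.9% of all clusters were called, 10.7% higher and 9.14% lower. As a share, 4 of 38 is no larger than this background. Bst2 had 14.96, 14.62, 15.12, 14.42 and 13.31 in KO neutrophils, against 13.21, 11.96, 11.39 and 11.54 in WT neutrophils. All 5 KO arrays lay above all 4 WT arrays, with KO neutrophil 5 and WT neutrophil 1 closest to each other. The means were 14.49 ± 0.71 (SD, n = 5) in KO and 12.02 ± 0.83 (n = 4) in WT, a difference of 2.46 or 5.51-fold (SE 0.32, limma adjusted p = 6.52e-06). Parp12 had 13.39, 13.17, 13.11, 13.29 and 13.23 in KO neutrophils, against 11.88, 11.93, 11.38 and 12.33 in WT neutrophils. The KO arrays were close to each other and all above the WT arrays. The difference of Parp12 was 1.36 or 2.56-fold (SE 0.19, adjusted p = 1.3e-05).

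Ifi27l2a, a small interferon-induced membrane protein gene, had 6.84, 6.51, 6.67, 6.63 and 6.65 in KO neutrophils, against 5.37, 5.28, 5.39 and 5.71 in WT neutrophils. Its arrays did not overlap, and the group means of 6.66 and 5.44 lay below the median cluster level. The difference was 1.23 or 2.34-fold (SE 0.35, adjusted p = 0.014). Isg20 had 9.17, 10.87, 10.71, 9.74 and 10.83 in KO neutrophils, against 11.15, 12.15, 11.12 and 11.06 in WT neutrophils. All KO arrays lay below all WT arrays, 3 of them by a small margin. The difference of Isg20 was -1.10, or 2.15-fold lower (SE 0.33, adjusted p = 0.0176). Its call ended with a fit to only the arrays compared (adjusted p = 0.119) and without WT neutrophil 2 (-0.85, adjusted p = 0.0774), KO neutrophil 1 (-0.83, 0.0727) or KO neutrophil 4 (-0.97, 0.0539). These 4 genes were the only ones of the 38 whose KO and WT ranges did not overlap in neutrophils, where 11.4% of all clusters did not.

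**Figure D4:**
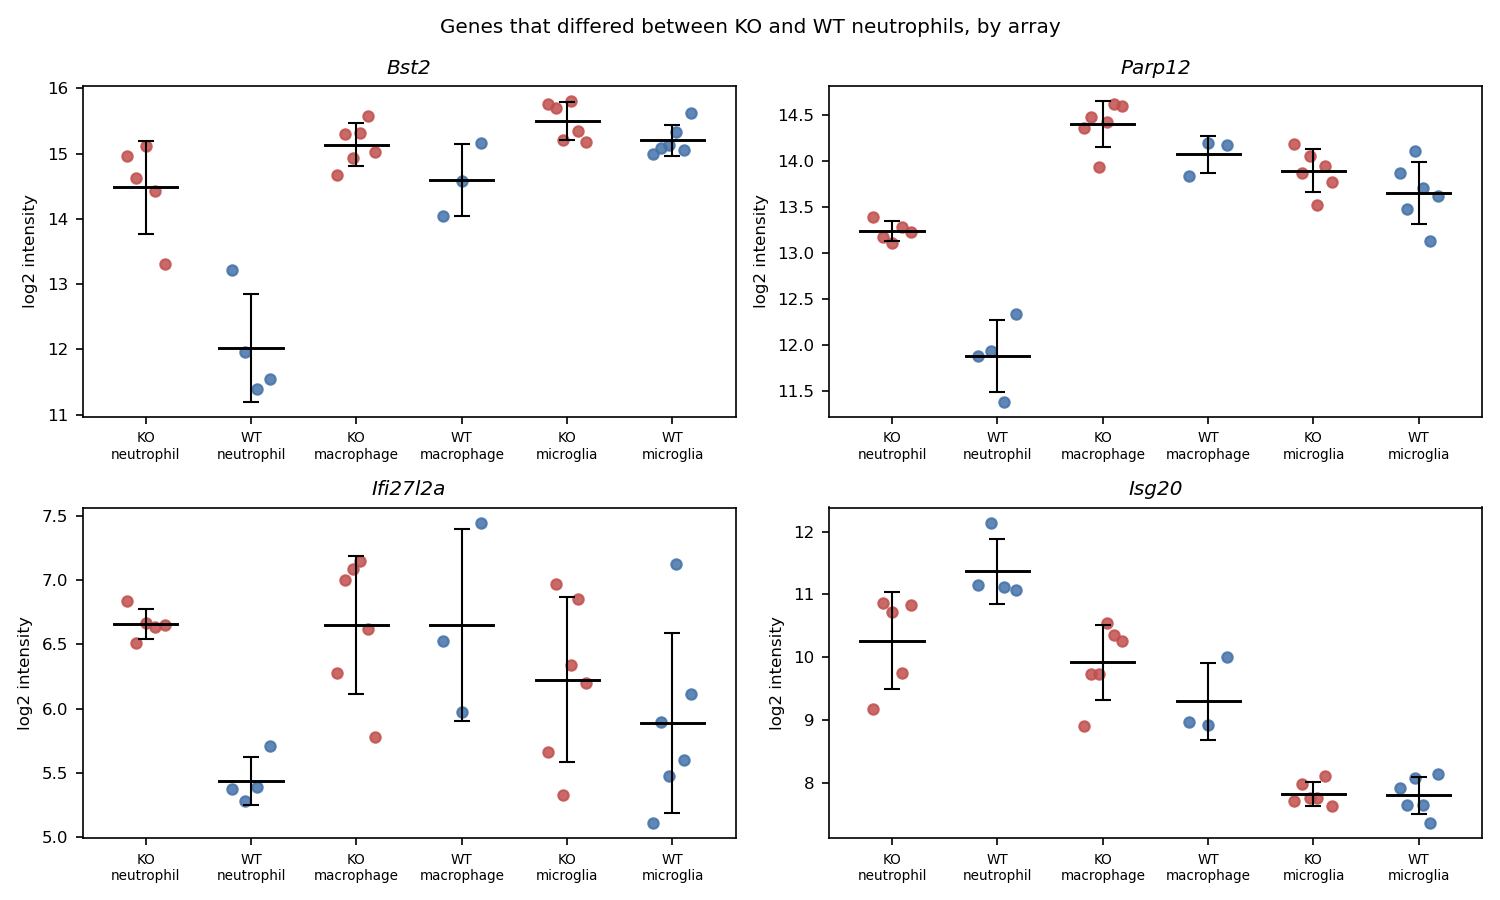
Log2 intensity of Bst2, Parp12, Ifi27l2a and Isg20 on each array (vertical axes, which do not start at 0) in the 6 groups (KO red, WT blue), with the mean as a line and the SD as a bar. In neutrophils the KO arrays lay above the WT arrays for Bst2, Parp12 and Ifi27l2a and below them for Isg20.

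The other 34 genes did not pass in neutrophils, with the next smallest adjusted p at Herc6 (0.85, 0.0542), Irf1 (-0.78, 0.0645), Dhx58 (1.25, 0.0686) and Oas3 (-0.73, 0.0728). The core genes had differences of 0.35 for Irf7 (95% interval -0.62 to 1.33), 0.33 for Ifit1 (-0.26 to 0.91), 0.32 for Rsad2 (-0.30 to 0.93), -0.14 for Stat2 (-0.81 to 0.53), -0.30 for Ifit3 (-0.80 to 0.20) and -0.33 for Isg15 (-1.10 to 0.44). Each of these intervals included 0. The median difference of the 38 genes was 0.13, with 22 above 0, against a median of -0.13 over all clusters, 38% of which were above 0. This median changed sign, to -0.10 with quantile normalization and -0.02 without KO neutrophil 2, and was 0.22 without WT neutrophil 2. By role, 1 of 6 synthetase and nuclease genes was lower, 1 of 3 PARP genes was higher and 2 of the 5 in the group with Bst2 were higher, while 0 of the 5 sensors, 5 factors, 5 IFIT and viperin genes, 4 GTPases and 5 genes of the ISG15 system passed. Quantile normalization gave 3 genes higher and 3 lower. Of all clusters called, 54% were higher in KO neutrophils, and 71.6% with each array centred on its median, which moved the median of all clusters to -0.01. Leaving out WT neutrophil 2, WT neutrophil 3 or KO neutrophil 5 gave 6, 5 and 5 genes higher. Leaving out WT neutrophil 1, WT neutrophil 4 or KO neutrophil 5 gave 3, 2 and 2 lower.

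Other measures were also compared between KO and WT neutrophils. The median level per array of 2012 clusters that were bright in every macrophage and microglia array was 12.85 to 13.21 in KO and 12.42 to 12.91 in WT neutrophils. These clusters were chosen without a condition on neutrophils, so a comparison of this level with the other cell types would be set by the choice. With it as a covariate Bst2 had 1.31 (adjusted p = 0.0306) and Parp12 1.60 (0.00209), while Ifi27l2a (0.95, 0.404) and Isg20 (-1.08, 0.263) did not pass. Most calls over all clusters ended too, from 2370 higher and 2020 lower to 254 higher and 226 lower. The marker counts here are to be read against the 10.7% of all clusters called higher and the 9.14% called lower. Monocyte and macrophage markers averaged 11.91 to 12.58 in KO and 11.41 to 12.46 in WT neutrophils. Of these 12 markers 4 were higher in KO (Lyz2, Ms4a7, F13a1 and Ccr2) and 0 lower. Only 7 of the 12 differences were above 0, and the lowest was -1.52. Microglial markers averaged 8.88 to 10.63 in KO and 9.31 to 10.33 in WT neutrophils, with 0 of 11 higher and 2 lower (P2ry12 and P2ry13). Neutrophil markers averaged 14.91 to 15.82 in KO and 15.89 to 16.57 in WT neutrophils, without overlap. Their differences were negative for 11 of 11, with a median of -0.67, where 38% of all clusters were above 0. For 4 of the 11 the KO and WT ranges did not overlap, where 11.4% of all clusters did not. Of these markers 1, Retnlg, was called lower, and this 9.09% is near the share over all clusters. Markers of plasmacytoid dendritic cells, a cell type known for high Bst2, averaged 7.71 to 8.23 in KO and 7.64 to 8.20 in WT neutrophils, with 1 of 5 higher (Tcf4, a factor that other cells share) and 1 lower (Ly6d). T and NK cell markers averaged 4.79 to 5.20 in KO and 5.11 to 5.58 in WT neutrophils, with 0 of 8 higher and 2 lower. The part of the marker levels in the neutrophil results was not tested.

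In KO macrophages 0 of the 38 genes passed in either direction against WT macrophages, where 0.00452% of all clusters were called. An unadjusted limma p under 0.05 was found for 2 of the 38 genes and for 1029 of all 22103 clusters. Dtx3l, a ubiquitin ligase that works with PARP9, was 9.43 at the lowest, 9.52 at the median and 9.96 at the highest in KO macrophages, against 9.10, 8.97 and 9.15 in WT macrophages, a difference of 0.52 (95% interval 0.08 to 0.97, limma adjusted p = 0.998). Dhx58 was 11.90, 12.45 and 12.82 (lowest, median, highest) in KO macrophages, against 10.72, 11.69 and 11.58 in WT macrophages, a difference of 1.08 (0.02 to 2.13, adjusted p = 0.998). Dtx3l and Dhx58 were the 2 genes whose ranges did not overlap, where 2.92% of all clusters did not. Isg20 was 8.90, 9.99 and 10.55 in KO macrophages, against 8.96, 8.92 and 10.00 in WT macrophages, a difference of 0.62 (-0.08 to 1.33, adjusted p = 0.998). The median difference was 0.11, with 26 genes above 0, against 0.03 over all clusters, 54.6% of which were above 0. It was -0.08 without WT macrophage 2 and 0.25 without WT macrophage 3.

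In KO microglia 0 of the 38 genes passed against WT microglia, where 0% of all clusters were called. An unadjusted limma p under 0.05 was found for 4 of the 38 genes and for 646 of all 22103 clusters. Ddx58, which encodes the RNA sensor RIG-I, was 9.70 at the lowest, 9.80 at the median and 10.29 at the highest in KO microglia, against 8.29, 9.37 and 9.62 in WT microglia, a difference of 0.65 (95% interval 0.22 to 1.08, limma adjusted p = 1). It was the 1 gene whose ranges did not overlap, where 0.109% of all clusters did not. Oas2 was 4.54, 5.68 and 6.13 in KO microglia, against 4.16, 4.71 and 5.04 in WT microglia, a difference of 0.86 (0.18 to 1.53, adjusted p = 1). Herc6 was 12.41, 12.62 and 13.43 in KO microglia, against 11.70, 12.06 and 12.46 in WT microglia, a difference of 0.67 (0.12 to 1.22, adjusted p = 1). Both genes had overlapping ranges, and Oas2 lay below the median cluster level. The median difference was 0.21, with 28 genes above 0, against 0.00 over all clusters, 50.4% of which were above 0, and it was 0.14 to 0.29 with single arrays left out.

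**Figure D5:**
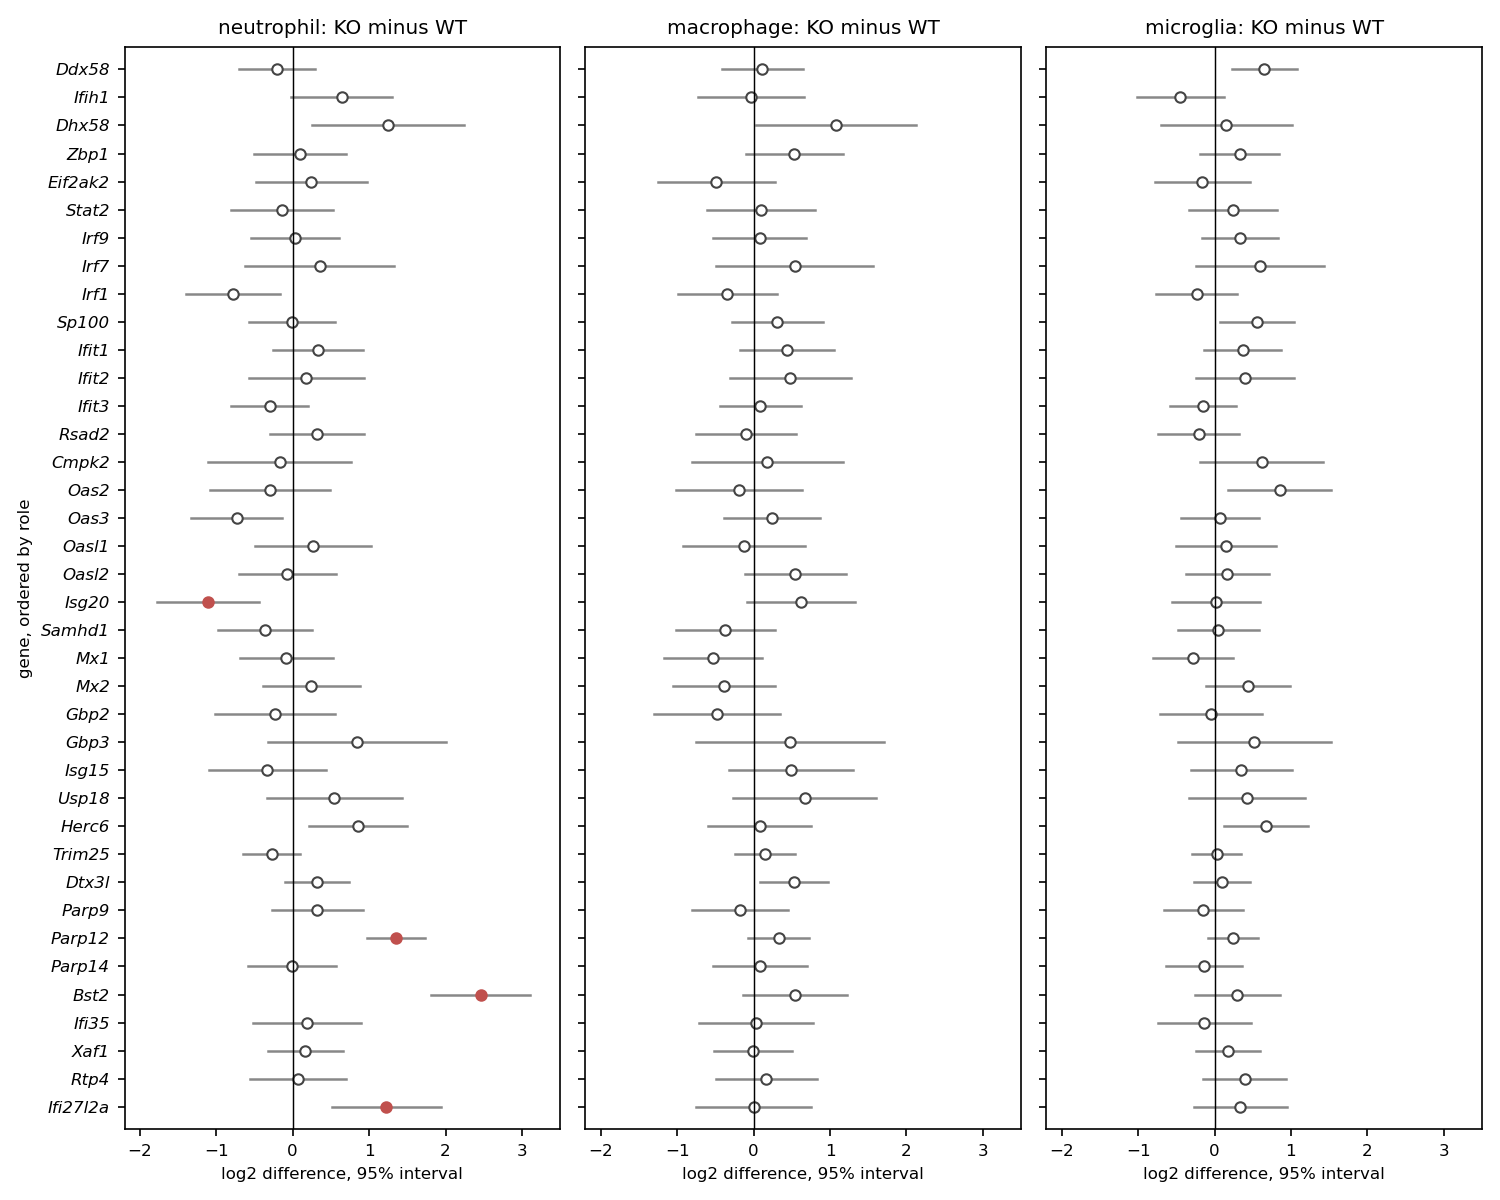
KO minus WT difference in log2 intensity of each of the 38 genes (rows, ordered by role) in neutrophils, macrophages and microglia, with 95% intervals of the limma fit. Filled points passed the adjusted p threshold, which 4 genes did in neutrophils and 0 in macrophages or microglia.

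The change with genotype itself was compared between cell types. For Bst2 it was larger in neutrophils than in microglia by 2.16 (SE 0.42, limma adjusted p = 0.00245) and than in macrophages by 1.92 (SE 0.46, adjusted p = 0.0133). For Parp12 it was larger in neutrophils by 1.12 than in microglia (SE 0.24, adjusted p = 0.00647) and by 1.03 than in macrophages (SE 0.27, adjusted p = 0.0213). For Isg20 the change in neutrophils minus that in macrophages was -1.73 (SE 0.47, adjusted p = 0.0273), and minus that in microglia -1.13 (adjusted p = 0.112). These were 2 genes higher and 0 lower against microglia, where 5.79% of all clusters were called (4.06% higher and 1.73% lower), and 2 higher and 1 lower against macrophages, where 6.87% were (4.36% higher and 2.51% lower). Between macrophages and microglia 0 genes and 0% of all clusters were called. Against macrophages calls ended under several alternatives. Quantile normalization left 1 higher and 1 lower, and Parp12 no longer passed (0.77, limma adjusted p = 0.119). Only the arrays compared left 1 higher and 0 lower. There Bst2 (1.92, adjusted p = 0.0618) and Isg20 (-1.73, 0.0947) no longer passed. Bst2 did not pass there without WT macrophage 3 (1.64, adjusted p = 0.058), nor Parp12 without WT neutrophil 3 (0.86), WT macrophage 2 (0.97) or WT macrophage 3 (0.98). Isg20 did not pass there without WT neutrophil 2, KO neutrophil 1, KO neutrophil 4, WT macrophage 1 or WT macrophage 2 (-1.46 to -1.60). Against microglia Bst2 and Parp12 passed with each single array left out.

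Other genes of the interferon pathway, from lists that are separate from the 38, were measured beside them, and their counts are to be read against the 10.7% of all clusters called higher and the 9.14% called lower in KO neutrophils. In KO against WT neutrophils 4 of 15 genes of nucleic acid sensing were higher and 0 lower: Tlr3 (1.88, SE 0.43, adjusted p = 0.00276) and Tlr9 (1.10, SE 0.38, 0.0423), endosomal sensors of RNA and DNA, Mndal (1.33, SE 0.30, 0.00286), of the family of interferon-inducible DNA sensors, and Mavs (1.30, SE 0.30, 0.00351), the adaptor of RIG-I. Of 15 genes of signal transduction and feedback 1 was higher, Irf8 (1.95, SE 0.30, adjusted p = 5.46e-05), a factor of monocyte development, and 6 were lower, led by Irf2 (-1.36, SE 0.24, 0.000258), a repressor at the response element. Of 21 interferon gamma induced genes 3 were higher and 0 lower: Psmb10 (1.36, SE 0.34, adjusted p = 0.00616) and Psmb8 (0.67, SE 0.19, 0.0149), of the immunoproteasome, and B2m (0.60, SE 0.15, 0.00472), the light chain of class I molecules. Of 24 interferon and receptor genes 0 were higher and 3 lower: Ifnlr1 (-0.69, adjusted p = 0.0154), Ifna11 (-0.57, 0.029) and Ifna14 (-0.49, 0.0371). The 14.3% of interferon gamma induced genes that were higher and the 12.5% of interferon and receptor genes that were lower are near the shares over all clusters. Ifnb1, the gene of interferon beta itself, was 4.99 to 5.80 in KO and 5.02 to 5.57 in WT neutrophils, below the median cluster level. In each of these lists 0 genes passed between KO and WT macrophages or microglia in the same fit.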

How the data were processed

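Affymetrix Clariom HT mouse arrays of 30 sorted cell samples in 6 groups were used. The authors deposited RMA intensity values on a linear scale, per the submitters' processing notes for the method and per the values for the scale. The RMA version and which arrays were normalized together are not given in the sources used here. Values were from 5.62 to 438297, and 0 array pairs were identical. Groups came from the labels.

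The log2 of each intensity was fitted with limma 3.58.1 (R 4.3.3) over 22103 clusters, with 24 residual degrees of freedom and Benjamini-Hochberg adjustment over all clusters (threshold 0.05, two-sided). The script was tested on simulated data. Gene symbols came from the platform's annotation, in which 19508 clusters had a symbol and 2595 had none, and the brightest cluster was to stand for a gene. The 38 measured genes had 1 cluster each. Cell type comparisons were made within a genotype, KO was compared with WT within a cell type, and the genotype change was compared between cell types.

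Values by array (lowest, median and highest in groups of 6) are given for 6 core genes (Ifit1, Ifit3, Isg15, Irf7, Stat2 and Rsad2), for up to 8 genes with the smallest p past the threshold (3 where none passed) in KO against WT, and for the 4 highest and 4 lowest differences past it between WT cell types. For pathway lists up to 4 genes past the threshold are named. The members and lists were chosen with earlier results of these data known. Alternatives were quantile normalization, centring on each array's median, omission of the dimmest 25% of clusters, a robust prior with a trend in the variance, only the arrays compared, replicate number as a block, each array left out, and, for KO against WT neutrophils, the median level of 2012 bright clusters as a covariate. These had a log2 level of at least 11 in every macrophage and microglia array and WT means under 1 apart in those cell types, with no condition on neutrophils. Promoter windows came from RefSeq.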

Additional observations from a re-analysis of the deposited data

Results flagged for a closer look

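Of 115 gene and group sets with 4 to 10 arrays, 8 had 1 array far from the others, where chance sets apart about 1 in 20. WT neutrophil 2 had 8.87 for Ifit1, where its 3 group mates had 6.89 to 7.12, and 12.15 for Isg20, against 11.06 to 11.15. KO microglia 6 had 7.97 for Ifit3, against 9.02 to 9.24 in the other KO microglia arrays, and 6.70 for Isg15, against 7.79 to 8.38. KO microglia 2 had 9.72 for Stat2, against 10.34 to 10.65. WT microglia 3 had 9.55 for Dtx3l, against 8.24 to 8.48. KO macrophage 2 had 8.84 for Irf1, against 9.45 to 9.79, and KO neutrophil 5 had 6.82 for Mx2, against 6.18 to 6.26.

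The KO minus WT change differed between cell types for 3 genes by limma's test of the difference. For Bst2 it was larger in neutrophils by 2.16 than in microglia and by 1.92 than in macrophages. For Parp12 it was larger by 1.12 than in microglia and by 1.03 than in macrophages. For Isg20 the change in neutrophils minus that in macrophages was -1.73. For neutrophils against microglia 5.26% of the measured type I interferon response genes were called, where 5.79% of all clusters were. For neutrophils against macrophages 7.89% of these genes were called, where 6.87% of all clusters were. These shares are near those over all clusters.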

How the results depend on the processing

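Of 681 values for counts, medians and array means under alternatives, 632 stayed within 1.5 times the reported count or within the spread between arrays. No named gene that was called turned its direction. The small medians of the 38 genes did change sign: KO minus WT in neutrophils (0.13) was -0.10 with quantile normalization and -0.02 without KO neutrophil 2, and in macrophages (0.11) it was -0.08 without WT macrophage 2. The median genotype change of neutrophils minus microglia (-0.17) was positive under 2 alternatives (up to 0.02), of neutrophils minus macrophages (-0.10) under 5 (up to 0.16), and of macrophages minus microglia (-0.04) under 9 (up to 0.11). Quantile normalization gave 3 genes lower in KO than in WT neutrophils, a median of 0.77 for WT neutrophils minus microglia, 5 higher with a median of -0.43 for WT neutrophils minus macrophages, 5 lower with a median of 0.66 for KO neutrophils minus microglia, 0 lower for KO macrophages minus microglia, 3 higher for KO neutrophils minus macrophages, 1 higher for the genotype change in neutrophils minus macrophages, and a mean of 8.44 in KO microglia. Centring gave medians of 1.51 (KO, with 0 lower) and 1.48 (WT) for macrophages minus microglia, -1.03 for WT neutrophils minus macrophages and 0.50 with 4 lower for KO neutrophils minus microglia, and a mean of 8.46 in KO microglia. With only the arrays compared, 0 genes were lower in KO neutrophils, 2 were lower in WT macrophages than in WT microglia, and the genotype change in neutrophils minus macrophages had 1 higher and 0 lower. The covariate left 0 lower in KO neutrophils. With single arrays left out, KO against WT neutrophils had 3 to 6 higher and 0 to 3 lower, macrophages minus microglia 1 to 2 lower in KO and 0 to 2 in WT, and WT neutrophils minus macrophages a median of -1.08 to -0.53. The genotype change in neutrophils had 0 to 1 lower against microglia, and 0 to 2 higher and 0 to 2 lower with a median of -0.30 to 0.16 against macrophages. The cause of these changes was not tested.

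The replicate block gave 1 gene lower in WT macrophages than in WT microglia and changed no other call, though the sign of the last median above turned with it (0.02). Same-numbered arrays did not deviate together: 64 pairs had correlations of -0.20 to 0.26, and 8 exceeded 0.1. The mean of several clusters of a gene was not run, since each gene had 1. With 3 WT macrophage arrays and no detection call per array, small or dim differences could not be resolved.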

Other observations

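The other genes of the interferon pathway also differed between WT cell types. Over all clusters, 9.62% were higher and 27.9% lower in macrophages than in microglia, 22% higher and 32.3% lower in neutrophils than in microglia, and 29.6% higher and 22% lower in neutrophils than in macrophages. Among 15 genes of nucleic acid sensing, WT macrophages exceeded WT microglia in 7 and were below them in 4, with 5.06 for Mndal, of the interferon-inducible DNA sensor family, and -4.16 for Tlr3, the endosomal sensor of double-stranded RNA. The 26.7% that were lower are close to the share over all clusters. WT neutrophils were below WT microglia in 9 of these genes and above them in 3, with -5.97 for Tlr3 and -3.86 for Tlr9, the endosomal DNA sensor. Against WT macrophages they were below in 9 and above in 1, with -5.34 for Tlr9.

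Among 15 genes of signal transduction and feedback, WT neutrophils exceeded WT microglia in 8, with 2.53 for Jak2, and were below them in 1, Irf8, at -3.64. WT macrophages exceeded WT microglia in 7 and were below them in 0, with 3.03 for Stat4. Among 24 interferon and receptor genes, WT macrophages were above WT microglia in 3, with 1.01 for Ifnar1, a chain of the receptor for interferon alpha and beta, and below them in 11, where the 12.5% higher are close to the share over all clusters. Among 21 interferon gamma induced genes, WT neutrophils were below WT macrophages in 7 and above them in 1, with -3.36 for the proteasome subunit gene Psmb10.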
